A study of Arabidopsis thaliana with 12 samples.

Results

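The response of wild-type Arabidopsis thaliana roots to methyl jasmonate (MeJA) was described across the genes expressed in them, with attention to transport, nutrients, the cell wall, redox enzymes and growth. Genes were taken from 6 libraries of the accession Col, 3 from roots on plain Murashige and Skoog medium (MS) and 3 from roots given MeJA for 3 h. A gene was kept when its FPKM, the fragments per kilobase of transcript scaled to library depth, was at least 1 in at least 3 of the 6 libraries. This kept 17777 of the 23719 genes listed over the whole series and left 5942 below the minimum. The 523 genes that met it in exactly 3 libraries had a median mean level of 1.09 FPKM, and the 385 genes that missed it with exactly 2 libraries had one of 0.843 FPKM. All seedlings were 5 days old when sampled, had been held at 4 °C for 2 days on half-strength medium and were grown at 22 °C. For MeJA the protocol text names 15 µM but the design text names 50 µM, and which of these applied could not be settled. Another 6 libraries, 3 on MS and 3 on MeJA, came from the mutant erf114, named for an ethylene response factor gene, and served here to estimate the spread and to test whether the mutant responded differently. Nothing in the labels ties a replicate to a culture of its own, and the p-values therefore speak of the scatter among these libraries alone, part of which may be technical.

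Jasmonates are fatty-acid derived hormones made after wounding, herbivory and infection. The hormone brings JAZ repressor proteins to the receptor COI1 for degradation, which frees transcription factors such as MYC2, and these bind G-box elements and close variants of them in promoters. In roots, jasmonate is known for slowing primary root growth and for raising defence compounds, many of which are rich in nitrogen or sulfur.

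The Col libraries held 20595909 to 20897031 counts and listed 21209 to 21598 genes. The jasmonate marker gene VSP2, a vegetative storage protein, was at 1.93, 1.84 and 1.67 FPKM on MS and at 206, 249 and 246 FPKM on MeJA, which matched the treatment labels. Root marker genes were all present (13 of 13 tested), with summed levels of 923 to 1129 FPKM on MS and 720 to 767 FPKM on MeJA. Most of each sum was CASP1, at 875.3, 665.3 and 763.5 FPKM on MS and 567.5, 530.8 and 519.0 FPKM on MeJA, which was not called (edgeR adjusted p = 0.11). Of the 13 root markers 0 rose and 2 fell, the root epidermis genes GL2 (log2 change -0.83) and COBL9, listed as SHV2 (-0.75). Marker genes of flowers and trichomes summed to at most 1.18 FPKM and those of seed storage to at most 3.37 FPKM in any Col library, with AP1, AG and CRU3 at 0 throughout. Shoot photosynthesis genes, 13 in all, summed to 1565.5 FPKM in MS replicate 1, to 394.4 and 435.3 FPKM in the other MS libraries, and to 313.8, 305.5 and 693.1 FPKM in MeJA replicates 1 to 3. MS replicate 1 also stood apart on the second principal component of the Col libraries (37.1, against -29.9 and -19.3 for the other MS libraries), so counts of genes are given with and without it where they move.

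After 3 h of MeJA, 3923 of the 17777 genes changed (22.1%, edgeR quasi-likelihood test, Benjamini-Hochberg adjusted p below 0.05). Of these 1863 rose (10.5%) and 2060 fell (11.6%), so that 47.5% of calls were rises. The share was 47.9% with median-of-ratios scaling and 47.7% with DESeq2, while limma on log2(FPKM + 1), which changes the test, the input and the scale together, put 32.7% of its calls on the rising side. Rises were the more extreme in size, with 352 genes up by at least 4-fold and 81 by at least 16-fold, against 185 and 21 genes down by as much. A mean below 1 FPKM on MS and of at least 5 FPKM on MeJA was found for 41 risen genes, and the opposite shift for 20 fallen genes. In all, 155 risen genes had a mean below 1 FPKM on MS and 225 fallen genes had one on MeJA. These genes, LSU1 and PHO1;H1 below among them, met the minimum wholly or in part through the group where they were high. Counts of large changes therefore describe the genes kept and depend on the minimum. Without MS replicate 1 the test called 3403 genes (19.1%), 1783 of them higher and 1620 lower (9.11%). In whole roots a change in the share of a cell type and a change of RNA per cell cannot be told apart, and this holds for all results that follow. From here on, a change is a log2 fold change of MeJA over MS with its standard error (SE), every p is edgeR's adjusted p over all 17777 genes, and n is 3 libraries a group.

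Changes in level were ranked only among genes that met the naming criteria given with the processing and lay outside lists of known jasmonate genes. Within this ranking the largest rise was that of AT4G22212, a defensin-like gene (chr4:11753842-11754752), from 1056, 1015 and 886 FPKM on MS to 8084, 7589 and 7542 FPKM on MeJA. AT4G12545, which encodes a protein of the lipid-transfer family, rose from 920, 1039 and 984 FPKM to 4136, 4042 and 4110 FPKM. Next came AT5G23820 and AT5G23830, adjacent genes for proteins with an MD-2-related lipid recognition domain, of which AT5G23820 went from 107, 101 and 105 FPKM to 2896, 2850 and 3065 FPKM (4.87 ± 0.16, adjusted p = 3.6e-09). The 10 largest rises also took in ANNAT1, an annexin, the glutathione S-transferase gene GSTU26 and the methionine sulfoxide reductase genes MSRB7 and MSRB9. The largest fall in level was that of GSR2, a cytosolic glutamine synthetase, followed by the aquaporin gene PIP2A. Among the 10 largest falls were also TIP2;2 and PIP2B, both aquaporin genes, EXT3, an extensin gene, and AGP14, an arabinogalactan protein gene. SAG21, a small stress-associated protein gene, fell from 2203, 1706 and 1788 FPKM to 509, 417 and 433 FPKM. In each of these genes all 3 MeJA libraries lay on 1 side of all 3 MS libraries, as the choice of named genes required, and over all 17777 genes 6912 (38.9%) had such non-overlapping groups.

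The MeJA effect differed between erf114 and Col for 5 genes (0.0281%), none of them named in the comparisons that follow.

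Genes were grouped in 48 function lists holding 2916 genes, of which 2007 passed the minimum. Of the tested members 775 changed, 328 upward and 447 downward, and 42 of the 48 lists had a called share above the 22.1% of all genes. The lists with the largest excess of rises relative to their size were those for sulfate, shikimate enzymes, MATE transporters and NADPH oxidases with alternative respiration. Those with the largest excess of falls were xyloglucan endotransglucosylases, germin-like proteins, aquaporins and arabinogalactan proteins. Because these lists were assembled with earlier results of these data known, their counts are a description. Counts that follow without a share stand beside 10.5% risen and 11.6% fallen over all genes.

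**Figure D1:**
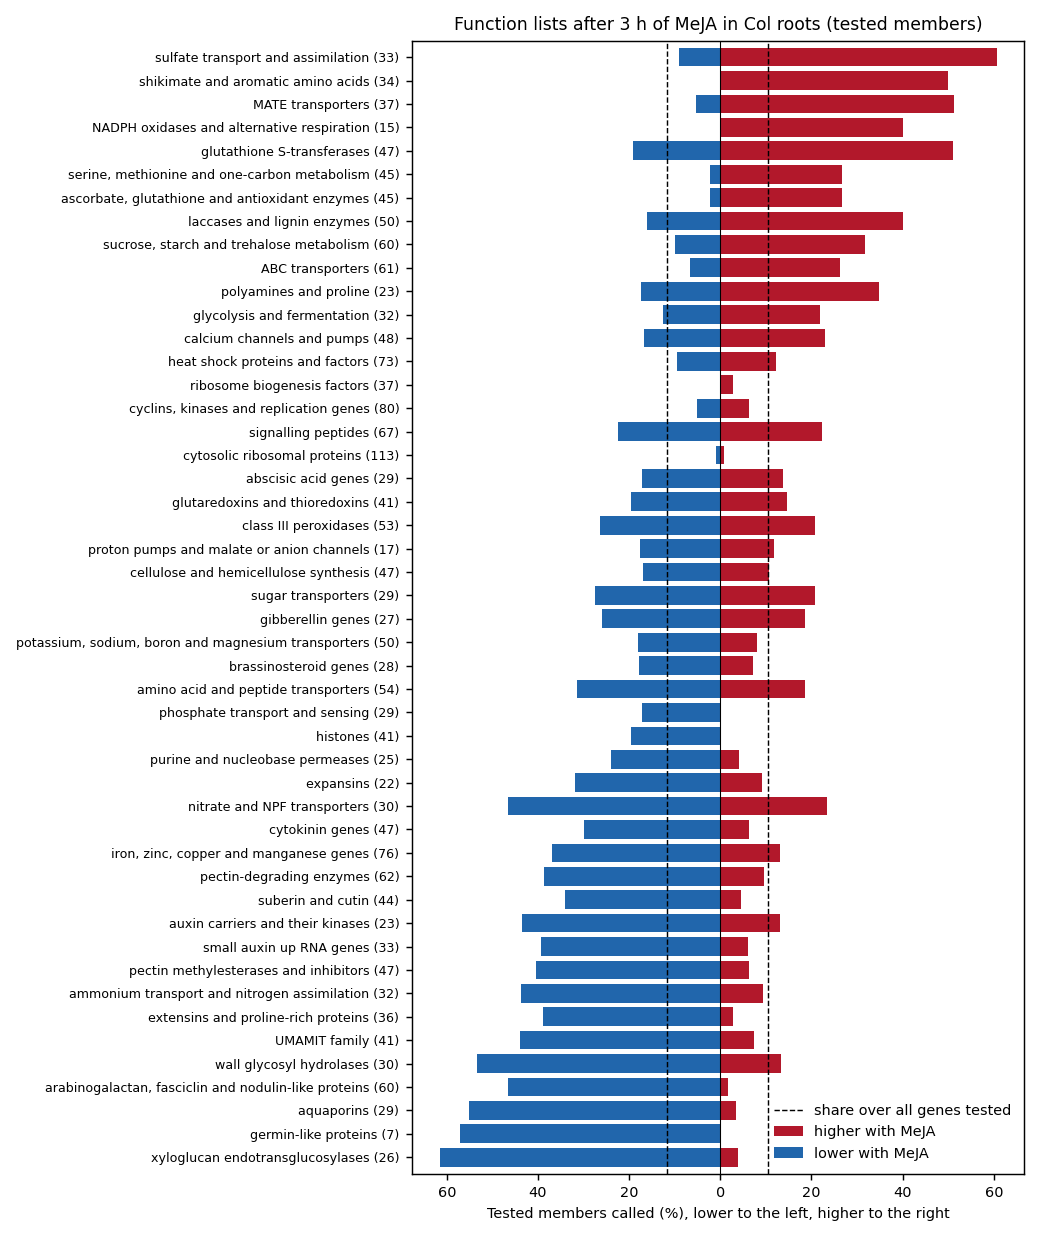
Share of the tested members (%) of each of 48 function lists called higher (red, to the right) or lower (blue, to the left) after 3 h of MeJA in Col roots, with the number tested in brackets. Dashed lines give the shares over all genes, 10.5% higher and 11.6% lower; sulfate genes reach furthest right (20 of 33) and xyloglucan endotransglucosylases furthest left (16 of 26 lower, 1 higher).

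Promoter sequences are shown for 5 risen genes with different roles and for the fallen gene NRT2:1, because jasmonate-responsive transcription factors are known to bind the G-box. The 5 were picked for holding a motif, which most genes that rose at least 2-fold did not. LSU3 is a low-sulfur response gene, MDHAR a monodehydroascorbate reductase gene, PSK2 a phytosulfokine precursor gene and SUC1 a sucrose transporter gene. Each sequence is the 250 bases before the annotated start, 5′ to 3′ on the strand of the gene, from RefSeq (TAIR10.1), and capitals mark a G-box (CACGTG) or the variant AACGTG on either strand.
LSU3 (chr3:18373148-18373397, minus strand): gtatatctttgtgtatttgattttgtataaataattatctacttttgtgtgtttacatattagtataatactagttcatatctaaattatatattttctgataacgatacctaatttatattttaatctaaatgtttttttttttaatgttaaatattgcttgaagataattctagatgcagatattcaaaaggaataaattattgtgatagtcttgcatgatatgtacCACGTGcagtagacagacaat
MDHAR (chr3:3059245-3059494, minus strand): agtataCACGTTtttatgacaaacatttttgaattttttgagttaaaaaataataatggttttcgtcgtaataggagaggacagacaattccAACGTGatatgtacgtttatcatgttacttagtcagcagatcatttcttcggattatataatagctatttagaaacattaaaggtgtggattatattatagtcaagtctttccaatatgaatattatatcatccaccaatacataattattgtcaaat
PSK2 (chr2:9737333-9737582, plus strand): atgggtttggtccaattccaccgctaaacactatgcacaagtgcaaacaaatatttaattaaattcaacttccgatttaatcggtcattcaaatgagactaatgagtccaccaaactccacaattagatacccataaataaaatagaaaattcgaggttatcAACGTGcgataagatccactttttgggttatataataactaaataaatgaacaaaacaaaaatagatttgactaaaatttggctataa
SUC1 (chr1:27053780-27054029, plus strand): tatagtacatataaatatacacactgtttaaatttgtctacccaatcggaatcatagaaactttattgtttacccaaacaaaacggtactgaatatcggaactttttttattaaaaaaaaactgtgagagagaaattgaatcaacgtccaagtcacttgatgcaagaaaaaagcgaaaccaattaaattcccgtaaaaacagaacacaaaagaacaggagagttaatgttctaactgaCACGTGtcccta
AT5G23820 (chr5:8030915-8031164, plus strand): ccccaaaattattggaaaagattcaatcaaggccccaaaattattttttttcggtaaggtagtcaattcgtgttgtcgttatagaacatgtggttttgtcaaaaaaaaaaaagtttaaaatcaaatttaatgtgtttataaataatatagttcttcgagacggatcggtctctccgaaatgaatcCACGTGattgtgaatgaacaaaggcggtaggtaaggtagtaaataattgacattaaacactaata
NRT2:1 (chr1:2523773-2524022, plus strand): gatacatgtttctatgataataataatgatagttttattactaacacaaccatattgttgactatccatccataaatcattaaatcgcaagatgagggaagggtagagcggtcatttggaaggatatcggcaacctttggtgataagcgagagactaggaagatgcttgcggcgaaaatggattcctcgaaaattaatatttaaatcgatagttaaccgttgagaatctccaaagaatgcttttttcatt
LSU3 had a G-box whose first base lay 21 bases before the annotated start, SUC1 had 1 at 12 bases and AT5G23820 had 1 at 65 bases. PSK2 had the variant at 88 bases and MDHAR had it at 158 and 244 bases. These letters did not occur in the window of NRT2:1. Over the 17720 tested genes with a promoter sequence, 7.41% held CACGTG and 7.82% held AACGTG on either strand. Among 925 genes that rose at least 2-fold the shares were 13.2% and 19.6%, and among 350 that rose at least 4-fold they were 14.6% and 24.9%. Among 849 genes that fell at least 2-fold the shares were 5.18% and 8.01%, and among 185 that fell at least 4-fold they were 7.57% and 8.65%. GCCGCC, the element of ethylene response factors, was held by 1.96% of all tested promoters and by 1.62% of those that rose at least 2-fold. Of the 26 xyloglucan endotransglucosylase and 29 aquaporin promoters, 0 held CACGTG or AACGTG. In the nitrate and NPF transporter list 3.33% held each. The MATE list had 10.8% for each, and the glutathione S-transferase list 10.6% for CACGTG and 12.8% for AACGTG. The risen sulfate list held CACGTG in 1 of 33 promoters (3.03%), that of LSU3, and AACGTG in 6 (18.2%). A match is a description of letters in this window and was not tested as a binding site.

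Nitrate uptake and reduction genes fell at several successive steps. Of 30 tested nitrate and NPF transporter genes, 14 fell and 7 rose, with a median change of -0.32. NRT2:1, the main high-affinity nitrate transporter of roots (chr1:2524023-2526322), was at 39.9, 36.4 and 34.2 FPKM on MS and at 1.64, 1.31 and 0.94 FPKM on MeJA (-4.78 ± 0.33, adjusted p = 6.7e-07). WR3, the NAR2.1 partner protein that the transporter needs at the membrane, fell from 348, 368 and 328 FPKM to 112, 127 and 117 FPKM (-1.51 ± 0.12, adjusted p = 1.7e-06). The dual-affinity transporter and nitrate sensor NRT1.1 fell from 373, 337 and 383 FPKM to 189, 154 and 160 FPKM (-1.07 ± 0.17, adjusted p = 0.00064). The levels of all 3 genes on MeJA lay below every MS library, which the choice of named genes required of NRT2:1.

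Genes that move nitrate between root and shoot changed in opposite directions. NRT1.5, which loads nitrate into the xylem, fell from 78.8, 175 and 181 FPKM to 18.8, 27.4 and 27.3 FPKM (-2.46 ± 0.24, adjusted p = 1.3e-05). NRT1.8, which takes nitrate back out of the xylem, rose from 2.33, 1.48 and 2.40 FPKM to 9.80, 9.18 and 8.33 FPKM (2.18 ± 0.33, adjusted p = 0.00037). SLAH3, a nitrate-permeable anion channel, fell from 39.7, 59.7 and 54.0 FPKM to 6.50, 6.02 and 6.16 FPKM (-2.95 ± 0.18, adjusted p = 3.3e-07). GTR1, which belongs to the same NPF family but carries glucosinolates, rose (1.67 ± 0.33, adjusted p = 0.0026), as did the peptide transporter gene PTR3 (1.3 ± 0.15, adjusted p = 5.6e-05).

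In assimilation, 14 of 32 tested genes fell and 3 rose, with a median of -0.35, and the list took 0.855, 0.965 and 0.971% of counts on MS and 0.645, 0.611 and 0.620% on MeJA. The nitrate reductase genes NIA1 (-1.02 ± 0.19, adjusted p = 0.0016) and NIA2 (-1.17 ± 0.17, adjusted p = 0.00036) both fell. The nitrite reductase gene NIR1 went from 209, 243 and 270 FPKM to 87.4, 74.2 and 79.4 FPKM (-1.51 ± 0.13, adjusted p = 3.2e-06). GSR2 (chr1:24655115-24657703), among the most abundant transcripts of these roots, fell from 2551, 2577 and 2602 FPKM to 890, 806 and 804 FPKM (-1.57 ± 0.15, adjusted p = 8.8e-06). Of the ammonium transporters, AMT1;3 fell (-1.20 ± 0.18, adjusted p = 0.00042), while AMT1;1 had a change of -0.74 ± 0.26 that missed the threshold (adjusted p = 0.066) but passed with the replicate block (adjusted p = 0.0041). BT1, a nitrogen-responsive BTB domain protein gene, fell by 2.48 on the log2 scale (SE 0.24, adjusted p = 1.3e-05).

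Among the 3 risen members of the assimilation list were ASN1 and GDH2, genes of asparagine and glutamate turnover. ASN1, which makes asparagine from glutamine and aspartate and is known as a gene of carbon-starved or darkened tissue (chr3:17437840-17441431), rose from 2.57, 2.30 and 2.17 FPKM to 92.5, 71.2 and 88.9 FPKM (5.23 ± 0.22, adjusted p = 2.1e-08). GDH2, a glutamate dehydrogenase of mitochondria (chr5:2355759-2358241), rose from 156, 197 and 218 FPKM to 967, 909 and 974 FPKM (2.40 ± 0.17, adjusted p = 8.2e-07). Every MeJA library was at least 4 times any MS library in GDH2 and over 20 times in ASN1.

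Sulfate genes rose at steps from uptake to cysteine synthesis. Of 33 tested members 20 rose and 3 fell, the median change was 0.89, and the list went from 0.365, 0.378 and 0.386% of counts to 0.722, 0.692 and 0.728%. SULTR1;2, the main root sulfate uptake transporter, rose from 67.7, 89.8 and 93.5 FPKM to 188, 216 and 203 FPKM (1.35 ± 0.19, adjusted p = 0.00027). Its high-affinity relative SULTR1;1 fell from 2.72, 2.56 and 3.11 FPKM to 0.91, 0.52 and 0.54 FPKM (-2.02 ± 0.24, adjusted p = 6.5e-05). SULTR2;1, a low-affinity transporter of vascular tissue, rose (1.75 ± 0.22, adjusted p = 8.4e-05).

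ATP sulfurylase activates sulfate, and its gene APS1 rose from 362, 340 and 357 FPKM to 878, 744 and 847 FPKM (1.27 ± 0.17, adjusted p = 0.00015). The APS reductases that commit sulfate to reduction rose together, APR1 from 30.8, 42.9 and 36.7 FPKM to 199, 224 and 243 FPKM (2.66 ± 0.12, adjusted p = 2.9e-08), APR3 by 2.43 ± 0.12 and APR2 by 0.98 ± 0.14. Sulfite reductase, SIR, rose by 0.89 ± 0.14 (adjusted p = 0.00041). OASC, a mitochondrial enzyme that forms cysteine, rose from 56.9, 82.1 and 78.7 FPKM to 197, 194 and 206 FPKM (1.54 ± 0.10, adjusted p = 6.4e-07). APK4, 1 of the APS kinases, which direct activated sulfate away from reduction, fell (-0.87 ± 0.14, adjusted p = 0.00072).

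The low-sulfur response genes, small coiled-coil protein genes that are standard markers of sulfur deficiency, rose too. LSU1 and LSU3 lie next to each other on chromosome 3, LSU3 at chr3:18372404-18373147 with the G-box shown above. LSU3 went from 3.89, 3.16 and 2.74 FPKM to 36.0, 53.2 and 51.3 FPKM (3.87 ± 0.31, adjusted p = 2.4e-06), and LSU1 from 0.91, 0.36 and 0.24 FPKM to 9.89, 15.5 and 15.6 FPKM (4.75 ± 0.54, adjusted p = 4.6e-05). LSU2 rose by 2.43 ± 0.40 (adjusted p = 0.00085). Glutathione is the main store of reduced sulfur, and GSH1, its first and rate-limiting enzyme (chr4:12102135-12107695), rose from 145, 212 and 187 FPKM to 665, 634 and 674 FPKM (1.94 ± 0.11, adjusted p = 2.2e-07). GSH2, the enzyme of the next step, rose by 1.23 ± 0.13 (adjusted p = 2.4e-05). Of 45 tested serine, methionine and one-carbon genes 12 rose and 1 fell (28.9% called, against 22.1% called and 10.5% risen over all genes). The rises numbered 7 to 14 when any 1 library was left out, the fewest without Col MeJA replicate 3. The fall was lost without Col MS replicate 1 or Col MeJA replicate 2 or 3. The rises included PSAT, a phosphoserine aminotransferase (1.75 ± 0.11), and HMT3, a homocysteine methyltransferase (3.66 ± 0.21).

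Phosphate genes mostly did not pass the test. Of 29 tested members 5 fell and 0 rose (17.2% called, against 22.1% called and 11.6% fallen over all genes). The median was -0.05 (-0.09 without Col MS replicate 1), and with replicate numbers as a block 6 fell and 2 rose. Without Col MS replicate 2 or erf114 MeJA replicate 2, 1 rose. The major phosphate uptake transporter PHT1;1 was at 607, 469 and 545 FPKM on MS and at 670, 479 and 523 FPKM on MeJA, with overlapping groups (0.09 ± 0.22, adjusted p = 0.80). Among members that met the naming criteria the largest change was that of PHO1;H1, a relative of the phosphate exporter PHO1, from 4.44, 8.74 and 7.02 FPKM to 0.19, 0.30 and 0.30 FPKM (-4.57 ± 0.29, adjusted p = 4.0e-07). PHO1, which exports phosphate to the xylem, fell from 58.4, 119 and 104 FPKM to 36.2, 46.8 and 46.6 FPKM (-1.02 ± 0.16, adjusted p = 0.00044), and SQD2, which makes a sulfolipid, fell by 0.56 on the log2 scale (SE 0.09, adjusted p = 0.00061).

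Metal genes fell more often than they rose, 28 against 10 of 76 tested, with a median of -0.26. Without Col MS replicate 1, 22 fell and 10 rose, with a median of -0.15. IRT1, the root iron transporter, went from 65.4, 95.5 and 124 FPKM to 7.56, 12.4 and 13.3 FPKM (-3.03 ± 0.28, adjusted p = 6.8e-06). ZIF1, a vacuolar transporter known from zinc tolerance, rose from 21.8, 23.5 and 23.4 FPKM to 78.0, 78.2 and 85.2 FPKM (1.96 ± 0.11, adjusted p = 2.2e-07). Also higher were AT4G27870, annotated as a vacuolar iron transporter family gene (1.71 ± 0.17), and ABCG37, an exporter (1.42 ± 0.18). Potassium, sodium, boron and magnesium transporters gave 4 rises and 9 falls among 50, near the background (26.0% called, against 22.1% of all genes). SKOR, which releases potassium into the xylem, fell from 5.88, 15.8 and 13.9 FPKM to 3.52, 4.88 and 4.02 FPKM (-1.40 ± 0.25, adjusted p = 0.0013), and the potassium channel gene KCO6 rose by 2.06 ± 0.16 (adjusted p = 1.7e-06). The xylem-loading genes NRT1.5, PHO1 and SKOR were each lower in MS replicate 1 than in the other MS libraries. Each MeJA library was still below it, as the choice of named genes required.

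Calcium channel, pump and annexin genes changed in both directions, 11 higher and 8 lower of 48, with a median of 0.04. By at least 2-fold, 9 were higher and 3 lower. The list went from 0.238, 0.309 and 0.310% of counts on MS to 0.537, 0.571 and 0.615% on MeJA. The annexin genes ANNAT4 and ANNAT3, which encode calcium-dependent membrane-binding proteins, rose from 62.9, 98.5 and 87.8 to 572, 538 and 610 FPKM and from 15.6, 23.8 and 17.9 to 108, 128 and 134 FPKM. CNGC19, a cyclic nucleotide gated calcium channel gene, rose by 2.69 ± 0.56 (adjusted p = 0.0040). The related CNGC10 fell by 1.48 on the log2 scale (SE 0.13, adjusted p = 6.0e-06).

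Most aquaporin changes were falls. Of 29 tested members 16 fell and 1 rose, the median was -0.56 (-0.35 without Col MS replicate 1), and the family went from 3.38, 2.44 and 2.59% of all counts to 1.71, 1.64 and 1.63%. When any 1 library was left out, 10 to 18 fell, the fewest without Col MeJA replicate 3, and without MS replicate 1 there were 12. The rises numbered 0 without Col MS replicate 2 or 3 and 2 without Col MeJA replicate 2. TIP2;2, a tonoplast aquaporin (chr4:9698940-9700472), was at 2368, 1665 and 1876 FPKM on MS and at 606, 551 and 546 FPKM on MeJA (-1.77 ± 0.24, adjusted p = 0.00018). TIP2;3 fell from 890, 632 and 768 FPKM to 204, 219 and 223 FPKM (-1.80 ± 0.21, adjusted p = 5.0e-05). Of the plasma membrane water channels, PIP2A fell from 3855, 2683 and 3189 FPKM to 1711, 1594 and 1631 FPKM (-0.95 ± 0.22, adjusted p = 0.0079) and PIP2B by 0.81 on the log2 scale (SE 0.15, adjusted p = 0.0016). The 3 MeJA libraries were close together in each of these genes, and MS replicate 1 was the highest library.

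The plasma membrane proton pump HA2, which energises nutrient uptake and acidifies the wall, fell from 744, 865 and 997 FPKM to 412, 333 and 375 FPKM (-1.14 ± 0.16, adjusted p = 0.00022). Its relative HA11, at a lower level, rose from 8.54, 12.9 and 13.4 FPKM to 17.0, 15.9 and 17.2 FPKM (0.61 ± 0.11, adjusted p = 0.0016). Together the proton pump and anion channel genes gave 2 rises and 3 falls among 17 (29.4% called, against 22.1% of all genes). Of the rises 1 was left without Col MeJA replicate 2 or 3.

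Sugar transporters changed in both directions, 6 up and 8 down among 29, with 4 falls left when Col MS replicate 1 or Col MeJA replicate 2 or 3 was left out. The hexose uptake transporter MSS1, also known as STP13 (chr5:9243398-9247540), rose from 10.9, 11.2 and 12.7 FPKM to 106, 91.0 and 97.3 FPKM (3.14 ± 0.14, adjusted p = 2.9e-08). SUC1, a sucrose-proton symporter whose promoter is shown above (chr1:27054030-27056464), rose from 50.3, 41.7 and 44.4 FPKM to 219, 217 and 219 FPKM (2.30 ± 0.18, adjusted p = 1.9e-06). ESL1, a vacuolar sugar transporter, rose by 2.60 ± 0.30 (adjusted p = 4.5e-05). SWEET11, a sucrose exporter, fell from 37.2, 43.4 and 41.5 FPKM to 10.3, 10.2 and 12.7 FPKM (-1.82 ± 0.28, adjusted p = 0.00051). Both uptake carriers and the exporter had groups that did not overlap, as the choice of named genes required.

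Most changes among amino acid exporter genes were falls, while some permease genes rose. In the UMAMIT family, whose known members export amino acids, 18 of 41 tested genes fell and 3 rose, with a median of -0.39. UMAMIT17 fell from 47.4, 52.7 and 58.5 FPKM to 2.00, 2.21 and 3.18 FPKM, and its genomic neighbour UMAMIT20 from 42.6, 40.4 and 49.5 FPKM to 6.49, 6.92 and 7.76 FPKM. Among the other amino acid and peptide transporters 17 of 54 fell and 10 rose. The falls numbered 10 without Col MeJA replicate 2 and 11 without Col MeJA replicate 3. AAP3, an amino acid permease, rose from 9.99, 15.2 and 13.6 FPKM to 55.5, 67.8 and 67.4 FPKM (2.37 ± 0.12, adjusted p = 5.2e-08), and AAP7 rose by 2.26 ± 0.12. AT5G02170, of the same wider family, rose by 3.79 ± 0.18 (adjusted p = 4.3e-08). GDU4 and GDU5, glutamine dumper genes that promote amino acid export, fell by 1.6 and 3.14 on the log2 scale.

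The MATE and ABC families, which carry secondary compounds and toxins across membranes, rose more often than they fell. Of 37 tested MATE genes 19 rose and 2 fell, with a median of 0.63, and without Col MS replicate 2 the falls numbered 4. AT3G23550 rose from 1.17, 1.36 and 1.22 FPKM to 17.6, 19.6 and 17.6 FPKM (3.93 ± 0.20, adjusted p = 7.4e-08). DTX35, a flavonoid-related transporter, rose by 1.63 ± 0.13 (adjusted p = 1.9e-06), and EDS5, which exports a salicylic acid precursor from plastids, rose by 1.36 ± 0.20 (adjusted p = 0.00036). Of 61 ABC genes 16 rose and 4 fell, with 1 fall left without Col MeJA replicate 3 and 2 without Col MeJA replicate 2 or Col MS replicate 3. ABCG34, known to export the defence compound camalexin, rose from 42.3, 88.5 and 81.4 FPKM to 188, 188 and 191 FPKM (1.52 ± 0.18, adjusted p = 4.7e-05). Purine and nucleobase permeases gave 6 falls and 1 rise among 25 (10 falls with the replicate block, and the single rise was lost without any 1 of 9 libraries, 5 of them Col), with PUP7 down by 2.99 on the log2 scale (SE 0.26).

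**Figure D2:**
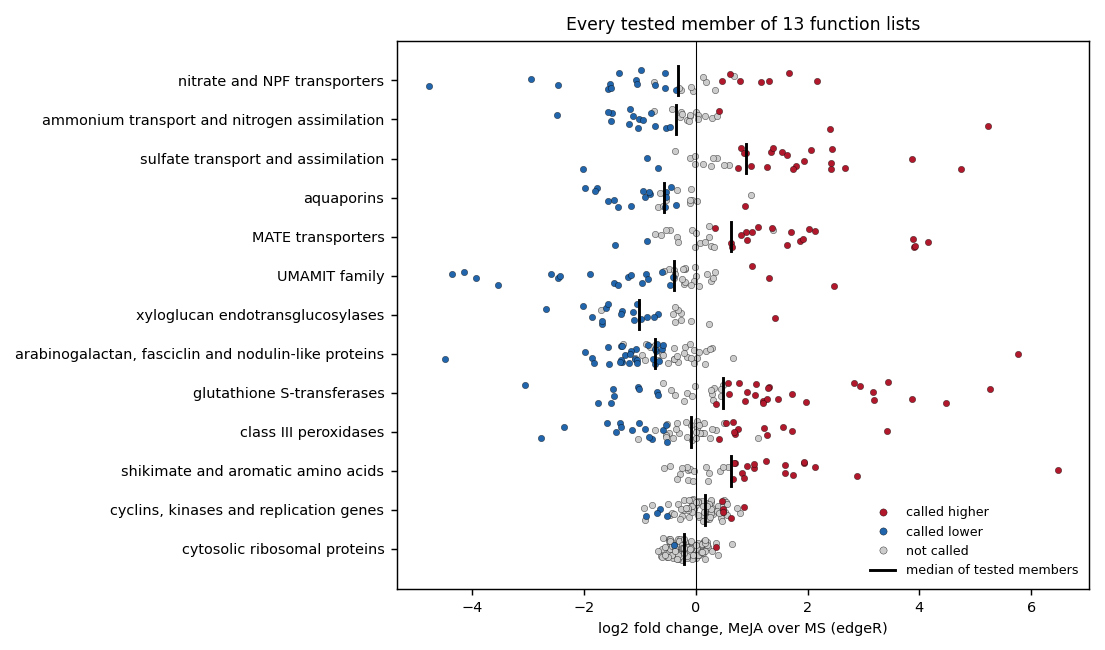
Log2 fold change of MeJA over MS for every tested member of 13 function lists, red where called higher, blue where called lower and grey where not called, with a black bar at each list's median. Sulfate (median 0.89) and MATE genes (0.63) lie to the right, xyloglucan endotransglucosylases (-1.02) and arabinogalactan proteins (-0.73) to the left, and cytosolic ribosomal proteins have 2 of 113 called and a median of -0.22 (0.02 without Col MS replicate 1).

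Most changes among wall-loosening genes were falls. Xyloglucan endotransglucosylases cut and rejoin the xyloglucan that tethers cellulose, and 16 of 26 tested genes fell while 1 rose (median -1.02). The family went from 0.245, 0.233 and 0.226% of counts to 0.108, 0.108 and 0.105%. XTH31 (chr3:16446935-16448844) fell from 494, 612 and 538 FPKM to 77.3, 89.5 and 78.8 FPKM (-2.68 ± 0.12, adjusted p = 2.1e-08), and XTH4 from 299, 199 and 206 FPKM to 76.5, 73.4 and 66.8 FPKM (-1.68 ± 0.24, adjusted p = 0.00028). The member that rose was XTH20, from 40.9, 49.2 and 40.4 FPKM to 106, 117 and 112 FPKM (1.42 ± 0.11, adjusted p = 1.9e-06).

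Expansins, which loosen walls without cutting them, gave 7 falls and 2 rises among 22 (median -0.60, and -0.18 without Col MS replicate 1), and 12 falls with replicate numbers as a block. Rises numbered 1 when any 1 Col library other than MS replicate 1, or either of 2 erf114 libraries, was left out. EXLA2 fell from 21.1, 22.9 and 25.5 FPKM to 2.55, 1.69 and 2.71 FPKM (-3.25 ± 0.23, adjusted p = 8.8e-07), and EXPA4 from 111, 73.0 and 77.7 FPKM to 25.6, 22.4 and 21.0 FPKM (-1.90 ± 0.26, adjusted p = 0.00020). EXPA7, an expansin of root hair cells, was at 108, 78.0 and 74.3 FPKM on MS and at 82.6, 82.2 and 77.7 FPKM on MeJA, with overlapping groups (-0.08 ± 0.20, adjusted p = 0.80).

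Structural wall proteins had many falls, and these counts were sensitive to single libraries. Of 60 tested arabinogalactan, fasciclin and nodulin-like genes 28 fell and 1 rose (median -0.73), but 15 fell without Col MS replicate 1, 17 without Col MeJA replicate 2 and 13 without Col MeJA replicate 3. Without Col MS replicate 1 the rises numbered 2. AGP30, a root arabinogalactan protein gene, fell from 598, 398 and 492 FPKM to 159, 126 and 117 FPKM (-1.86 ± 0.27, adjusted p = 0.00030). Of 36 extensins and proline-rich proteins 14 fell and 1 rose (median -0.71, and -0.42 without Col MS replicate 1), with 6 falls without any of those 3 libraries and 0 rises when leaving out any 1 Col library other than MS replicate 1. EXT4 fell from 285, 221 and 217 FPKM to 69.9, 89.3 and 59.5 FPKM (-1.70 ± 0.28, adjusted p = 0.00083). EXT3, an extensin gene of the root, fell from 2434, 2481 and 2466 FPKM to 1382, 1203 and 784 FPKM (-1.07 ± 0.25, adjusted p = 0.0086), with MeJA replicate 3 the lowest. The shoot photosynthesis sum was highest in MS replicate 1 and, on MeJA, in replicate 3, and its part in these counts was not tested.

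Pectin genes fell more often than they rose. Pectin methylesterases and their inhibitors gave 19 falls and 3 rises among 47 (5 rises with the replicate block), and pectin-degrading enzymes 24 falls and 6 rises among 62. AT1G70720, annotated as a pectin methylesterase inhibitor family gene, went against the list and rose from 4.6, 4.07 and 3.33 FPKM to 124, 110 and 101 FPKM (4.86 ± 0.31, adjusted p = 4.2e-07). AT4G25250 of the same annotation fell from 74.5, 94.2 and 93.5 FPKM to 17.7, 19.2 and 16.6 FPKM (-2.23 ± 0.18, adjusted p = 2.2e-06). AT4G24780, a pectin lyase-like gene, fell from 120, 105 and 118 FPKM to 48.2, 45.3 and 46.3 FPKM (-1.23 ± 0.19, adjusted p = 0.00049).

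Other wall glycosyl hydrolases gave 16 falls and 4 rises among 30, with 10 falls without Col MeJA replicate 2 and 8 without Col MeJA replicate 3. BXL1, a beta-xylosidase that trims pectic side chains, fell from 39.8, 46 and 47.6 FPKM to 11.7, 12.9 and 12.3 FPKM (-1.79 ± 0.13, adjusted p = 1.3e-06). Cellulose and hemicellulose synthesis genes gave 5 rises and 8 falls among 47 (27.7% called, against 22.1% of all genes). There were 5 falls without Col MeJA replicate 2 or 3. The primary wall cellulose synthase genes CESA1 (-0.28 ± 0.14, adjusted p = 0.17) and CESA6 (0.03 ± 0.11, adjusted p = 0.85) did not pass the test.

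Lignin and lignan genes rose more often than they fell, 20 against 8 of 50, with 5 falls without Col MS replicate 1 or Col MeJA replicate 3. DIR5, a dirigent protein gene (chr1:23813943-23814839), rose from 1.18, 2.91 and 1.87 FPKM to 160, 190 and 189 FPKM (6.57 ± 0.24, adjusted p = 6.8e-09). FAH1, the ferulate 5-hydroxylase of syringyl lignin, rose from 42.5, 47.5 and 37.8 FPKM to 156, 108 and 126 FPKM (1.67 ± 0.23, adjusted p = 0.00017). PAL1, the entry enzyme of phenylpropanoid synthesis, rose by 0.81 ± 0.13 (adjusted p = 0.00065), and 4CL1, which activates the acids it leads to, by 0.64 ± 0.11 (adjusted p = 0.0012). LAC7, a laccase gene, fell by 1.33 on the log2 scale (SE 0.17, adjusted p = 0.00010). Suberin and cutin genes gave 15 falls and 2 rises among 44 (9 falls without Col MeJA replicate 2). KCS10, a very-long-chain fatty acid elongase, fell from 11.3, 10.4 and 10.6 FPKM to 5.27, 5.05 and 5.05 FPKM (-1.02 ± 0.16).

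Glutathione S-transferases, which join glutathione to reactive compounds, rose in 24 and fell in 9 of 47 tested members, and went from 0.616, 0.628 and 0.580% of counts to 1.19, 1.20 and 1.23%. GSTU26 (chr1:5875295-5876620) rose from 151, 215 and 210 FPKM to 1571, 1584 and 1796 FPKM (3.18 ± 0.14, adjusted p = 2.9e-08), and GSTU5 from 15.1, 11.1 and 12.9 FPKM to 137, 133 and 143 FPKM (3.44 ± 0.41, adjusted p = 5.9e-05). Among members that met the naming criteria, the 3 with the largest rises, GSTU4, GSTU11 and GSTU5, were all of the tau class. By the same criteria the 3 with the largest falls, GSTF14, GSTF7 and GSTF2, were all of the phi class, GSTF2 going from 158, 144 and 166 FPKM to 55, 51.2 and 51.6 FPKM (-1.52 ± 0.21, adjusted p = 0.00019). Rises and falls were not counted by class over the whole list.

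Ascorbate and glutathione enzymes rose in 12 and fell in 1 of 45 tested members (28.9% called, against 22.1% called and 10.5% risen over all genes). With the replicate block 3 fell. MDHAR, a monodehydroascorbate reductase that regenerates ascorbate (chr3:3056375-3059244, promoter above), rose from 219, 143 and 158 FPKM to 1341, 1015 and 1148 FPKM (2.78 ± 0.34, adjusted p = 7.4e-05). Its organellar relative MDAR6 was the member that fell, from 109, 154 and 150 FPKM to 90.1, 88.1 and 86.7 FPKM (-0.56 ± 0.10, adjusted p = 0.0016). VTC5, which encodes the enzyme that commits sugar nucleotides to ascorbate, rose by 1.29 ± 0.09 (adjusted p = 9.1e-07). The cytosolic ascorbate peroxidase gene APX1, at 1989, 1514 and 1391 FPKM on MS and 1532, 1385 and 1347 FPKM on MeJA, had overlapping groups (-0.17 ± 0.21, adjusted p = 0.59).

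NADPH oxidases make superoxide at the cell surface, and of 15 genes in their list, which also holds alternative respiration, 6 rose and 0 fell. RBOHB rose from 5.44, 13.1 and 11.5 FPKM to 47.0, 58.1 and 59.4 FPKM (2.56 ± 0.22, adjusted p = 3.5e-06). RBOHD, the oxidase best known from immune signalling, was at 22.9, 13.4 and 24.8 FPKM on MS and 24.0, 15.7 and 22.3 FPKM on MeJA (0.06 ± 0.45, adjusted p = 0.93). AOX1A, the alternative oxidase of mitochondria, rose by 0.57 ± 0.10 (adjusted p = 0.0012).

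Class III peroxidases, which use hydrogen peroxide in the wall, were divided, with 11 rises and 14 falls among 53 and a median of -0.08 that turned to 0.01 without Col MS replicate 1. AT1G49570 rose from 11.7, 21.4 and 17.6 FPKM to 168, 167 and 176 FPKM (3.42 ± 0.16, adjusted p = 3.2e-08). AT2G37130, a much more abundant member, fell from 1004, 957 and 1024 FPKM to 325, 316 and 321 FPKM (-1.58 ± 0.14, adjusted p = 4.4e-06). Glutaredoxins and thioredoxins gave 6 rises and 8 falls among 41 (5 falls without Col MS replicate 1 or Col MeJA replicate 2 or 3). TH7, a thioredoxin gene, rose from 16.7, 17.8 and 16.2 FPKM to 140, 148 and 156 FPKM (3.17 ± 0.14), and GRXS13, a glutaredoxin gene, fell from 102, 137 and 143 FPKM to 28.5, 25.4 and 29.2 FPKM (-2.14 ± 0.18). Germin-like genes fell in 4 of 7 tested members and rose in 0, GLP4 from 38.8, 52.4 and 43.1 FPKM to 13.7, 13.9 and 14.1 FPKM (-1.62 ± 0.11). Heat shock genes were near the background, with 9 rises and 7 falls among 73 (21.9% called, against 22.1% of all genes). Their rises numbered 5 without Col MeJA replicate 3 and 19 with the replicate block.

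**Figure D3:**
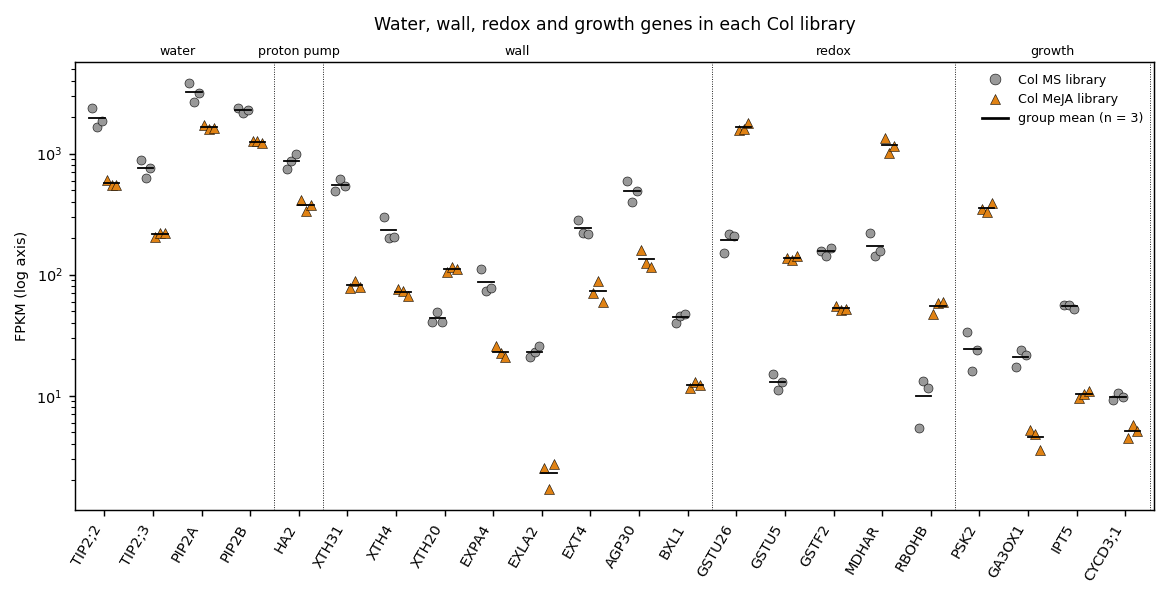
FPKM (log axis) of water, proton pump, wall, redox and growth genes in each Col library, circles for MS, triangles for MeJA and black lines for group means (n = 3). Aquaporin, HA2 and most wall genes sit lower on MeJA, XTH31 at 77.3 to 89.5 FPKM against 494 to 612 FPKM, while XTH20, GSTU26, GSTU5, MDHAR, RBOHB and PSK2 sit higher.

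Cell cycle and ribosome genes stayed near or under the background at this time. Of 80 cyclin, kinase and replication genes 5 rose and 4 fell (11.2%, against 22.1% of all genes). Rises numbered 2 without Col MeJA replicate 2, and falls numbered 2 without that library or Col MS replicate 1 and 1 without Col MeJA replicate 3. CYCD3;1, a cyclin that carries cytokinin and sugar signals into the cycle, fell from 9.19, 10.6 and 9.78 FPKM to 4.44, 5.71 and 5.13 FPKM (-0.89 ± 0.15, adjusted p = 0.00072). CYCD1;1 rose from 13.2, 16.3 and 17.2 FPKM to 24.8, 27.4 and 28.5 FPKM (0.86 ± 0.09, adjusted p = 2.8e-05). The mitotic cyclin CYCB1;1 had overlapping groups, at 4.41, 6.39 and 4.72 FPKM on MS and 4.50, 5.85 and 6.11 FPKM on MeJA (0.15 ± 0.17, adjusted p = 0.55).

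Among 113 cytosolic ribosomal protein genes 1 rose and 1 fell (1.77%), with 0 to 2 in each direction when any 1 library was left out, 0 of both without Col MeJA replicate 3, and 3 in each direction with the replicate block. The median change was -0.22 and turned to 0.02 without Col MS replicate 1. Their summed share was 4.90, 3.98 and 3.88% of counts on MS and 3.48, 3.63 and 3.31% on MeJA, so MS replicate 1 was the highest library here as well. Histone genes gave 8 falls and 0 rises among 41 (19.5% called, against 22.1% called and 11.6% fallen over all genes). The falls numbered 2 to 11 when any 1 library was left out, 2 without Col MeJA replicate 2 or 3, 4 without Col MS replicate 1, and 5 without Col MeJA replicate 1 or any of 4 erf114 libraries. HIS1-3, a linker histone gene known from drought, fell from 5.11, 11.2 and 7.25 FPKM to 1.34, 2.52 and 1.55 FPKM (-1.94 ± 0.34, adjusted p = 0.0011).

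Gibberellin genes gave 5 rises and 7 falls among 27 (4 falls without Col MeJA replicate 2 or 3). GA3OX1 and GA3OX2 make bioactive gibberellin, and both fell, GA3OX1 from 17.3, 23.7 and 21.8 FPKM to 5.25, 4.86 and 3.58 FPKM (-2.12 ± 0.26, adjusted p = 8.0e-05). RGL3, a DELLA repressor of gibberellin responses, rose from 7.77, 6.01 and 7.04 FPKM to 17.9, 17.6 and 17.4 FPKM (1.39 ± 0.19, adjusted p = 0.00016), as did RGL1 (1.03 ± 0.14, adjusted p = 0.00019). Cytokinin genes fell in 14 and rose in 3 of 47 tested members, and rose in 6 with the replicate block. IPT5, an isopentenyltransferase at the first step of cytokinin synthesis (chr5:6361776-6363713), fell from 56.6, 55.7 and 52.4 FPKM to 9.5, 10.4 and 10.9 FPKM (-2.40 ± 0.19, adjusted p = 2.2e-06). The cytokinin response factor genes CRF6 and CRF5 fell by 1.82 and 1.79 on the log2 scale.

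Auxin carrier genes gave 10 falls and 3 rises among 23. The falls numbered 5 without Col MS replicate 1, 6 without Col MeJA replicate 2 and 4 without Col MeJA replicate 3. The efflux carrier gene PIN4 fell from 18.9, 17.9 and 20.9 FPKM to 11.4, 8.84 and 9.24 FPKM (-0.90 ± 0.20, adjusted p = 0.0055), and LAX2, an influx carrier gene, fell by 0.87 on the log2 scale (SE 0.18, adjusted p = 0.0044). AT2G17500, annotated as an auxin efflux carrier family gene, rose from 128, 154 and 157 FPKM to 672, 710 and 758 FPKM (2.35 ± 0.11, adjusted p = 3.2e-08). Small auxin up RNA genes, quick auxin targets linked to cell expansion, fell in 13 and rose in 2 of 33. The falls numbered 8 without Col MS replicate 1 or Col MeJA replicate 3, and the rises 0 or 1 when any 1 Col library was left out.

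Brassinosteroid genes gave 2 rises and 5 falls among 28, with 3 falls without Col MS replicate 1 or Col MeJA replicate 3 and 2 without Col MeJA replicate 1. The synthesis gene DET2 rose from a mean of 55.8 ± 4.32 FPKM (SD) to 118 ± 4.86 FPKM (1.12 ± 0.20, adjusted p = 0.0014). Of 29 abscisic acid genes 4 rose and 5 fell (31.0% called), and 8 fell with the replicate block. CYP707A1, which breaks down abscisic acid, rose from 6.70, 5.32 and 6.01 FPKM to 36.9, 37.5 and 35.7 FPKM (2.65 ± 0.36, adjusted p = 0.00020). The abscisic acid receptor genes PYL6 (-1.33 ± 0.22) and PYR1 (-0.69 ± 0.15) fell.

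Signalling peptide genes rose in 15 and fell in 15 of 67. The falls numbered 8 without Col MS replicate 1 or Col MeJA replicate 3 and 9 without Col MeJA replicate 2. Precursors of phytosulfokine, a sulfated growth peptide, did not move together. PSK2 (chr2:9737583-9738384, promoter above) rose from 33.5, 16 and 24.0 FPKM to 346, 332 and 392 FPKM (3.86 ± 0.37, adjusted p = 1.1e-05) and PSK5 by 2.59 ± 0.26, while PSK3 fell from 20.8, 13.2 and 17.6 FPKM to 6.49, 5.76 and 9.09 FPKM (-1.38 ± 0.26, adjusted p = 0.0021). PROPEP4, the precursor of a danger-signal peptide, rose from 130, 80.4 and 73.7 FPKM to 706, 643 and 636 FPKM (2.80 ± 0.33, adjusted p = 5.9e-05).

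**Figure D4:**
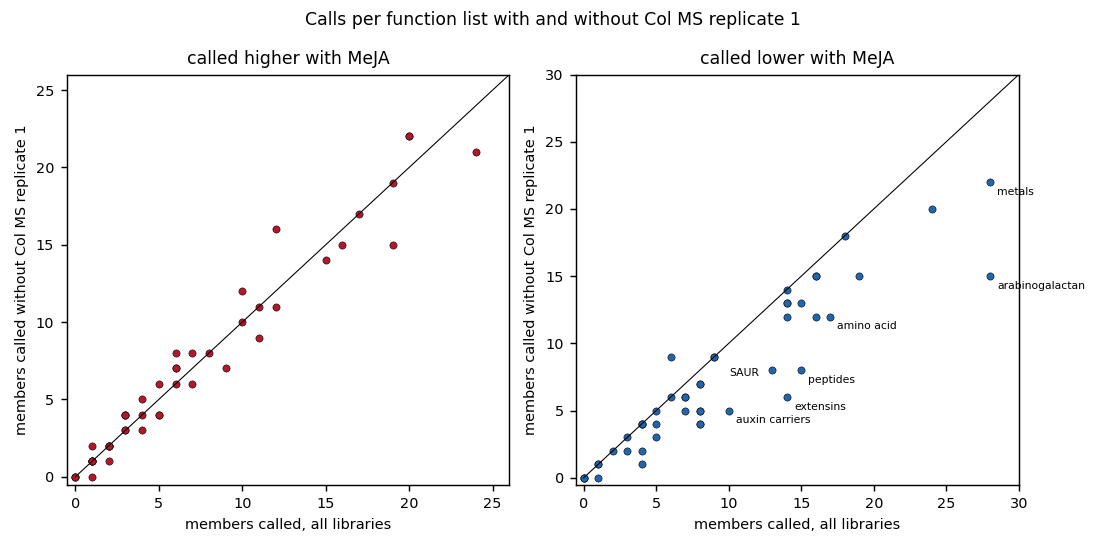
Members called higher (left) or lower (right) in each of 48 function lists with all libraries (horizontal axis) and without Col MS replicate 1 (vertical axis); 1 point is 1 list and the line marks equal counts. Counts of rises lie near the line, and the arabinogalactan (28 against 15 falls) and extensin lists (14 against 6) lie furthest below it.

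Primary carbon metabolism rose in parts. Sucrose, starch and trehalose genes rose in 19 and fell in 6 of 60, and in 15 and 9 without Col MS replicate 1. The cytosolic invertase CINV2 rose from 6.20, 7.53 and 7.39 FPKM to 22.3, 22.0 and 23.1 FPKM (1.74 ± 0.11, adjusted p = 3.8e-07), and GolS1, which starts raffinose synthesis, rose by 2.32 ± 0.22 (adjusted p = 8.8e-06). The trehalose phosphatase genes TPPG and TPPE moved in opposite directions, by 1.76 ± 0.37 and -2.04 ± 0.19. Glycolysis and fermentation genes gave 7 rises and 4 falls among 32, with 1 fall without Col MS replicate 1 or Col MeJA replicate 2 or 3, and 7 falls with the replicate block. PCK2, a carboxykinase that turns oxaloacetate into phosphoenolpyruvate, rose from 16.6, 18.2 and 18.7 FPKM to 104, 75.8 and 91.8 FPKM (2.41 ± 0.25, adjusted p = 2.4e-05).

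Shikimate and aromatic amino acid genes rose in 17 and fell in 0 of 34 tested members, with a median of 0.62, and 2 fell without Col MS replicate 2 or with the replicate block. Proline and polyamine genes gave 8 rises and 4 falls among 23. ERD5, the proline dehydrogenase that breaks down proline, rose from 49.4, 57.2 and 68.5 FPKM to 216, 185 and 210 FPKM (1.88 ± 0.22, adjusted p = 6.3e-05). P5CS1, which makes proline, rose by 0.50 ± 0.11 (adjusted p = 0.0053). ACL5, the thermospermine synthase of xylem development, fell from 47.4, 49.4 and 45.1 FPKM to 13.2, 17.5 and 16.8 FPKM (-1.52 ± 0.15, adjusted p = 1.2e-05).

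Some risen genes stood side by side on the chromosomes. Counting runs of at least 4 adjacent protein-coding genes that all changed at least 2-fold in 1 direction, there were 8 runs of risen genes with 35 genes in all and 0 runs of fallen genes. The calls of AT2G29430 (adjusted p = 0.0375) and AT4G22620 (adjusted p = 0.026) did not hold in every fit that left out 1 Col library or used the Col block. Each lies in a run of 4 genes, which would miss the minimum length without it. Over all tested genes 5.22% rose and 4.80% fell by that much. The longest run had 6 genes at chr5:15131289-15175566, from AT5G37980 to the MATE gene AT5G38030, and included the methyltransferase gene AT5G38020, which rose from a mean of 7.67 to 150.3 FPKM. A run at chr5:8028238-8037110 held AAP7 and the MD-2-related genes AT5G23820, AT5G23830 and AT5G23840. Another at chr2:12617936-12625790 held GSTU7, GSTU6, GSTU5 and AT2G29430, whose annotated span overlaps that of GSTU6. At chr4:7733114-7753210 the terpene synthase genes TPS12 and TPS13 alternated with the cytochrome P450 genes CYP71A19 and CYP71A20, of which CYP71A20 rose from a mean of 1.96 to 92.9 FPKM. The spans of CYP71A19 and TPS13 overlap, and without a stated strand or treatment of shared reads, the values of overlapping genes and of close family members such as the GSTU, XTH and MD-2-related genes are uncertain as to how reads were divided.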

How the data were processed

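RNA-seq of Col and erf114 roots with and without MeJA for 3 h gave 12 libraries in 4 groups of 3. Per the file headers, the authors deposited for each library read counts, FPKM and TPM per gene. The deposited counts were estimated counts, 1.54 to 1.72% of them not whole, and were rounded to whole numbers. FPKM values were used for the minimum and for levels, and the deposited TPM values were not used. The aligner, the counter and their genome build are not stated by any source used here. A gene missing from a library's table was set to 0. All 23719 identifiers matched the RefSeq table of TAIR10.1, which gave names and coordinates.

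Counts were tested with edgeR 4.0.16 in R 4.3.3 (TMM, quasi-likelihood, 4 group means over 12 libraries, 8 residual degrees of freedom, no covariates) over genes with FPKM of at least 1 in at least 3 of the 6 Col libraries, with Benjamini-Hochberg adjustment and a threshold of 0.05. The common biological coefficient of variation was 17.7%. The SE is the absolute log2 change divided by the square root of the F statistic. Counts of 20546417 to 20897031 per library limit precision mainly for genes near the minimum. The procedure was tested on simulated counts, drawn with the same spread for every gene and with independent libraries. The simulation held no deviating library such as Col MS replicate 1 and no pairing by replicate number, so it does not speak to either. DESeq2 1.42.0 and limma 3.58.1 on log2(FPKM + 1) and log2(FPKM + 0.1) were alternatives, beside another scaling, other minimums, the Col libraries alone, each library left out and a replicate block.

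Replicate numbers were used as a block only in alternatives. Deviations of same-numbered MS and MeJA libraries from their group means correlated at 0.50, 0.47 and 0.33. Differently numbered libraries correlated at -0.60 to 0.26, the highest being MS replicate 2 with MeJA replicate 3. Equal numbers may therefore pair the libraries, but this was not settled, and no label explains what they have in common. The main fit holds no block, so its p-values leave out any such pairing. No library was a duplicate of another of its group by a chi-square test of counts.

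The genes and lists were chosen with earlier results of these data known. Lists were matched by symbol, synonym or product name, and a thioredoxin-dependent peroxidase sharing the alias of a cell cycle gene was removed after its values were seen. Genes were named when among the 3 largest rises or falls of a list, with a mean of at least 5 FPKM in the higher group, no overlap between groups and the same call in the block fit and with each Col library left out, or among the 10 largest rises or falls in level by those criteria. The ranking by level left out genes in lists of known jasmonate genes. Genes that define a pathway step, members set beside them from the same list, and neighbouring genes were named in addition.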

Additional observations from a re-analysis of the deposited data

Results flagged for a closer look

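The MeJA effect differed between erf114 and Col for 5 of the 17777 genes (0.0281%, edgeR interaction test, adjusted p below 0.05), and 1091 genes had an unadjusted p below 0.05. For FTM1 the erf114 effect minus the Col effect was 3.18 on the log2 scale (adjusted p = 0.020), with means of 10.2 and 6.38 FPKM on MS and MeJA in Col and of 7.76 and 36.1 FPKM in erf114. AT2G39980 differed by 2.38 (adjusted p = 0.021), from 2.24 to 1.46 FPKM in Col and from 2.64 to 7.52 FPKM in erf114. ELIP1, a light-stress protein gene, differed by 2.65 (adjusted p = 0.021), from 15.4 to 16.2 FPKM in Col and from 13.2 to 71.4 FPKM in erf114. ETR2, an ethylene receptor gene, differed by 2.54 (adjusted p = 0.020), from 7.36 to 4.11 FPKM in Col and from 5.96 to 16.2 FPKM in erf114. AT1G77330 differed by 1.02 (adjusted p = 0.021), from 181 to 119 FPKM in Col and from 158 to 179 FPKM in erf114. With the replicate block, FTM1 (adjusted p = 0.0032) and AT2G39980 (0.023) passed, while ELIP1 (0.055), AT1G77330 and ETR2 (both 0.18) did not. Groups of 3 libraries were not tested for outlying samples.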

How the results depend on the processing

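The count of 3923 changed genes stayed within 1.5 times under every alternative, at 3900 with DESeq2's size factors in edgeR, 4516 with DESeq2, 4059 with no minimum, 3137 with a mean of at least 5 FPKM, 4529 and 4477 with limma at pseudocounts of 1 and 0.1, 3532 with the 6 Col libraries alone, and 2759 to 4282 with any 1 library left out. With the replicate numbers as a block the 6 Col libraries gave 5205 calls, 3760 of them shared, and the 12 libraries gave 3831. Beyond the values given beside the lists, the block ended no call of a named gene, which the choice of named genes required. The share of rises among calls was 47.5% and was 32.7 and 32.9% with limma at the 2 pseudocounts. Over the function lists the 775 calls became 567 to 820 with any 1 library left out, 263 to 346 of them rises and 304 to 474 falls, against 328 and 447, and 932 (389 and 543) with the Col block. Of the 230 genes picked by the naming rule or as checks of the treatment, such as VSP2, 4 were not called by either limma fit (GH9B8, LACS8, AHP1 and HAB2). At a mean of 5 FPKM 210 could be tested, and 0 reversed under any alternative. Of the 96 counts per list and direction, 16 moved by over 1.5 times without Col MS replicate 1, 29 without Col MeJA replicate 3 and 25 without Col MeJA replicate 2, and the cause was not tested. The 5 genes with a genotype difference became 43 with DESeq2, 2 with the 12-library replicate block and 0 to 8 with any 1 library left out. Depth limits the rarest genes, and the unsettled MeJA dose, the single time and the unknown source of replicates limit what the changes stand for.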

Other observations

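Both families in this paragraph were picked after their values were seen. Methionine sulfoxide reductases, which repair oxidised methionine, had 14 tested members, of which 8 rose and 0 fell, and 8 rose without Col MS replicate 1. MSRB6 rose from 12.1 ± 1.96 to 347 ± 17.3 FPKM (mean ± SD, n = 3) and the cytosolic PMSR2 from 206 ± 13.5 to 1191 ± 77.8 FPKM. MSRB8 rose from 9.12 ± 7.66 to 162 ± 19 FPKM, with a spread on MS close to its mean. MSRB7, MSRB9, PMSR1 and MSRB5 rose with log2 changes of 2.88, 1.36, 1.07 and 0.89. MSRB2, MSRB3 and PMSR3 were at 89.1, 69.5 and 139.9 FPKM on MS and 98.9, 74.2 and 147 FPKM on MeJA, and did not pass the test. Of 8 tested genes for proteins with an MD-2-related lipid recognition domain 7 rose and 0 fell, also without that library. AT2G26370 rose from 11.5 ± 2.69 to 534 ± 31.8 FPKM, AT1G45015 from 82.9 ± 13 to 410 ± 27.9 FPKM and AT2G16005 from 94.4 ± 15.5 to 433 ± 27.5 FPKM. AT3G11780 was the member without a call, at 103 ± 7.80 FPKM on MS and 91.6 ± 5.88 FPKM on MeJA. Some members of both families lie next to close relatives, so how reads were divided between them is uncertain.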
